A study of Mus musculus with 15 samples.

Results

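The striatal transcriptome of the saline lineage was described in 8 libraries, 4 from F2 mice and 4 from F1 mice, out of 15 libraries in the series. They were chosen by their labels as the libraries of both generations whose founding male had received saline. RNA sequencing of striatum was done in male ICR mice, an outbred stock labelled as wild type, at 7 weeks of age. Founders were males of 6 weeks given saline (10 mL/kg) or methamphetamine (METH, 5 mg/kg) under the skin on each of 21 days before mating to females that had received nothing. The F2 generation descends from these founders through F1 males, again bred with untreated females, and the F1 generation is the founders' own male offspring. The groups were F2 saline (n = 4) and F1 saline (n = 4), with F2 METH (n = 4) and F1 METH (n = 3) set beside them for the same contrast of generations. None of the 8 animals was itself given a drug, as far as the labels say, and no label says which litter or founder an animal came from, so p-values compare generations only with the spread between these animals. F2 and F1 libraries stand in separate deposited tables, so generation and table cannot be told apart in any comparison of F2 with F1.

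The striatum is the main input station of the basal ganglia. Most of its neurons are spiny projection neurons, GABA-releasing cells that integrate cortical and thalamic glutamate input with dopamine. Those of the direct pathway carry the dopamine receptor gene Drd1, and those of the indirect pathway carry Drd2, Adora2a and Penk. Glia, vessel cells and a small number of interneurons make up the rest of the tissue.

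Total counts ran from 34622167 to 50573906 in F2 saline libraries and from 35044343 to 37659436 in F1 saline libraries. The submitters entered neuronal as the cell type, whereas markers of glia, vessels and blood were present in all 8 libraries. The lists of erythrocyte, small structured RNA and glutamate receptor genes set single libraries apart, and a cortical excitatory neuron marker was high in several. Slc17a7, the vesicular glutamate transporter of cortical excitatory neurons, stood above 100 CPM (counts scaled to a common library size) in F2 saline replicate 4 and in F1 saline replicates 1 and 3. It was just under that level in F1 saline replicate 2, at 97.5 CPM, and stood at 56.7 CPM in F2 saline replicate 3. F1 saline replicate 4 held the highest sum of erythrocyte genes, and F1 saline replicate 3 the lowest sum of spiny projection neuron genes. In bulk tissue, fewer cells of a type and less RNA per cell cannot be told apart.

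Mitochondrial transcripts headed the ranking of transcript levels. Levels are given as TPM, which are scaled for transcript length and total within each library. The 25 highest features held 23.01% of all TPM, 12 of them mitochondrially encoded protein genes of the respiratory chain. COX1, the catalytic subunit of cytochrome oxidase, was highest in both generations, at 34229 ± 1843 TPM in F2 saline and 32765 ± 1058 TPM in F1 saline (SD, n = 4 each). ATP8 and ATP6 overlap on the mitochondrial genome, as do ND4L and ND4, so reads of each pair can be shared and their levels are uncertain. The share of TPM in the 25 features lay between 22.1% and 24.9% in F2 libraries and between 22.02% and 24.1% in F1 libraries.

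Below the mitochondrial genes stood transcripts of myelin, iron storage, neuropeptide and calcium signalling genes. Mbp, encoding myelin basic protein, was at 6535, 4426, 5071 and 3304 TPM in F2 saline replicates 1 to 4 and at 3401, 3276, 3297 and 3359 TPM in F1 saline replicates 1 to 4. The F1 values were close together, and the F2 values ran from the F1 level upwards. Fth1, the ferritin heavy chain, averaged 3916 ± 297 TPM in F2 saline and 4078 ± 314 TPM in F1 saline. Penk, encoding proenkephalin, was at 2688, 3138, 2849 and 2725 TPM in F2 saline and at 3456, 3161, 2068 and 3031 TPM in F1 saline, with F1 replicate 3 lowest. Ppp1r1b, encoding the dopamine-regulated phosphatase inhibitor of spiny projection neurons, averaged 2614 ± 362 TPM in F2 saline and 2187 ± 388 TPM in F1 saline. Hpca, the calcium sensor hippocalcin, averaged 2789 ± 316 TPM in F2 saline and 2707 ± 495 TPM in F1 saline. Other genes in the ranking were Cst3, Eef1a1, Apoe, Calm2 and Ckb.

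For 2 of the highest features, F1 replicate 3 lay apart from the other F1 libraries. Apoe, the lipid carrier apolipoprotein E of astrocytes, was at 2884, 2475, 2848 and 2682 TPM in F2 saline, against 2771, 2893, 1271 and 2948 TPM in F1 saline. Replicate 3 of F1 saline was the lowest by far, and the other 7 libraries lay close together. Rn18s-rs5, a pseudogene with ribosomal RNA sequence, was at 4391, 5978, 3263 and 2034 TPM in F2 saline and at 1266, 1291, 5411 and 1174 TPM in F1 saline. Its level is uncertain, since reads of ribosomal RNA can fall on it. F1 replicate 3 was high among F1 libraries and within the range of the F2 libraries.

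**Figure D1:**
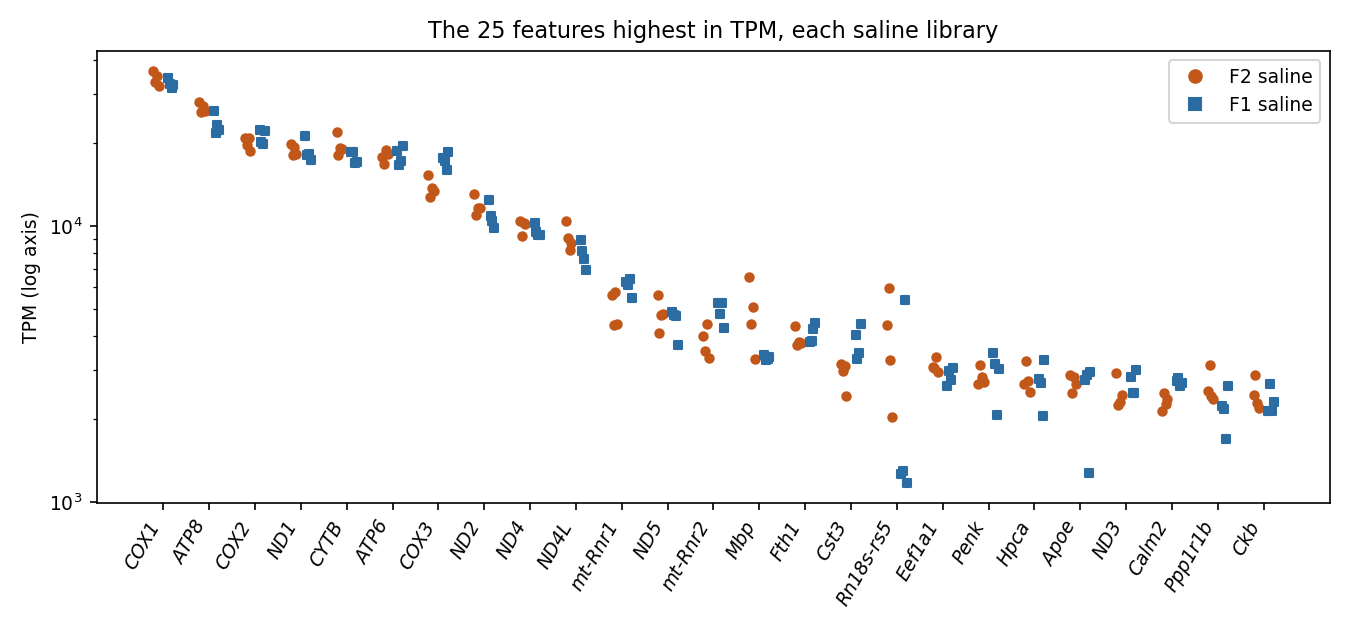
TPM (log axis) of the 25 highest features in each of the 4 F2 saline (circles) and 4 F1 saline (squares) libraries, ordered by the mean of the generation means. COX1 leads in every library, and the widest scatter among these features is that of Rn18s-rs5.

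Both generations expressed nearly the same genes at nearly the same rank. Of 45777 features in the tables, 14419 reached 1 TPM in all 8 libraries, 12803 of them protein coding and 705 long noncoding RNA genes. The rank correlation of mean TPM between F2 and F1 over these 14419 features was 0.987, a description across genes that are not independent. Of the 25 highest features per generation, 24 were shared, and of the 1000 highest, 900.

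Defining markers gave the picture of a striatal sample with all major glial types. Spiny projection neuron markers were abundant: Drd2 averaged 278 ± 29.6 TPM in F2 saline and 235 ± 51.3 TPM in F1 saline, and Drd1 averaged 184 ± 26.0 TPM in F2 saline and 148 ± 22.4 TPM in F1 saline. Adora2a, the adenosine receptor of indirect pathway neurons, averaged 496 ± 42.8 TPM in F2 saline and 419 ± 66.3 TPM in F1 saline. Chat, the acetylcholine-synthesising enzyme of cholinergic interneurons, averaged 28.2 ± 3.62 TPM in F2 saline and 19.4 ± 5.47 TPM in F1 saline. None of these 4 genes passed the test between generations described further on (edgeR adjusted p = 0.644, 0.386, 0.533 and 0.183).

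Glial, vessel and blood markers were present as well. Aldoc of astrocytes averaged 648 ± 37.96 TPM in F2 saline and 584 ± 14.2 TPM in F1 saline, and C1qa of microglia averaged 72.1 ± 11.4 TPM in F2 saline and 83.6 ± 9.82 TPM in F1 saline. The endothelial tight junction gene Cldn5 averaged 44.1 ± 8.27 TPM in F2 saline and 51.03 ± 8.04 TPM in F1 saline. Hba-a1, an alpha globin gene of red cells, averaged 248 ± 56.6 TPM in F2 saline and 543 ± 609 TPM in F1 saline. The dopamine transporter gene Slc6a3, whose mRNA is made in midbrain neurons that project here, was near 0, at 0.0764 TPM in F2 saline and 0.0636 TPM in F1 saline.

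Spread between animals was small for most genes. The SD of log2 CPM over 4 animals had a median of 0.17 in F2 saline and 0.19 in F1 saline over 18088 tested genes. Counting error alone would give a median of about 0.061 in each generation at these depths, so counting limits the median gene little. At 100 TPM or more (1653 genes), the median SD was 0.10 in F2 saline and 0.12 in F1 saline, and at 1 to 5 TPM (3552 genes) it was 0.32 in F2 saline and 0.33 in F1 saline. An SD above 1, over 2-fold per SD, was found for 475 genes in F2 saline and 624 genes in F1 saline, and 197 genes had it in both. Pairs of libraries differed by a root mean square of 0.53 to 0.61 log2 CPM within F2 saline and 0.55 to 0.72 within F1 saline, and by 0.55 to 0.77 between the generations.

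The steadiest genes above 20 TPM hardly differed between the 4 animals of a generation. Kmt5b, a histone H4 lysine methyltransferase, was at 68.7, 67.5, 68.5 and 67.6 CPM in F2 saline and at 63.03, 61.4, 62.5 and 61.5 CPM in F1 saline. Its SD of log2 CPM was 0.013 in F2 saline and 0.018 in F1 saline. Rab7, a GTPase of late endosomes, averaged 239.5 ± 2.98 CPM in F2 saline and 242 ± 5.25 CPM in F1 saline, and Psap, the precursor of lysosomal saposins, 1284 ± 12.4 CPM in F2 saline and 1332 ± 32.4 CPM in F1 saline. The others were Nisch, Map11, Ppp1r21, Pspc1, Oga, Snrpb2 and Upf2. These genes and the next were picked for their SD, so their SDs are descriptions.

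At the other end, several genes behaved as if on or off in single animals. Firre, an X-linked long noncoding RNA gene, was at 2.91, 3.30, 105.4 and 3.40 CPM in F2 saline and at 3.74, 158, 3.35 and 3.39 CPM in F1 saline, high in a single animal of each generation. Cwc22, encoding a splicing factor, was at 526, 67.7, 397 and 25.5 CPM in F2 saline and at 71.7, 537, 27.5 and 257 CPM in F1 saline, with a high and a low set in both. Masp2, a complement protease gene, was at 0.381, 7.84, 11.2 and 13.7 CPM in F2 saline and at 6.27, 14.5, 14.1 and 9.67 CPM in F1 saline, so that a single F2 animal was low.

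Fggy, a carbohydrate kinase gene, was at 1.20, 0.354, 0.404 and 0.590 CPM in F2 saline and at 0.357, 0, 7.80 and 9.99 CPM in F1 saline. Ubash3a, a regulator of T cell receptor signalling, was at 6.32 to 7.98 CPM in F2 saline but at 4.18, 0.197, 11.6 and 15.9 CPM in F1 saline. Zfp33b, a zinc finger gene, was at 0.463, 0.914, 0.768 and 15.95 CPM in F2 saline and at 0.605, 0.394, 14.8 and 9.07 CPM in F1 saline. Prss56, a serine protease gene, ranged from 1.89 to 43.5 CPM in F2 saline but only from 4.86 to 7.34 CPM in F1 saline. None of these genes passed the test between generations (edgeR adjusted p of 0.144 for Prss56 and above for the others).

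Gdf1 and Cers1 share a locus and partly the same transcript, and their levels mirrored each other. Gdf1 was at 102, 4.54, 80.5 and 115 CPM in F2 saline and at 6.16, 108, 79.0 and 2.97 CPM in F1 saline. Cers1, a ceramide synthase gene named because of this overlap, was at 25.7, 124, 22.1 and 24.5 CPM in F2 saline and at 116, 17.1, 14.1 and 149 CPM in F1 saline. Cers1 was high in the 3 animals in which Gdf1 was low, and which of the genes the reads belong to is uncertain.

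Several of the remaining variable genes followed Slc17a7. This gene was at 10.6, 9.93, 56.7 and 184 CPM in F2 saline and at 321, 97.5, 524 and 9.43 CPM in F1 saline. Neurod2, a cortical transcription factor gene, was at 1.25, 0.796, 2.91 and 10.8 CPM in F2 saline and at 15.2, 5.65, 31.6 and 0.342 CPM in F1 saline. Rtn4rl2, a Nogo receptor family gene, Slc30a3, the zinc transporter of glutamatergic vesicles, Nrn1, Nr4a2 and Vip were highest in the same animal of each generation as Slc17a7. Of 20 cortical excitatory neuron markers, 19 were lower in F2 saline with a median log2 fold change of -1.08, and 0 passed the test. Their summed level ran from 1330 to 1593 CPM in F2 saline and from 1331 to 2545 CPM in F1 saline, so the groups overlapped. The sum was 1343 CPM in F2 replicate 1 and 1440 CPM in F1 replicate 4, where Slc17a7 was at 10.6 and 9.43 CPM. Most of the sum came from other members than Slc17a7, so it is not a measure of cortical content.

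**Figure D2:**
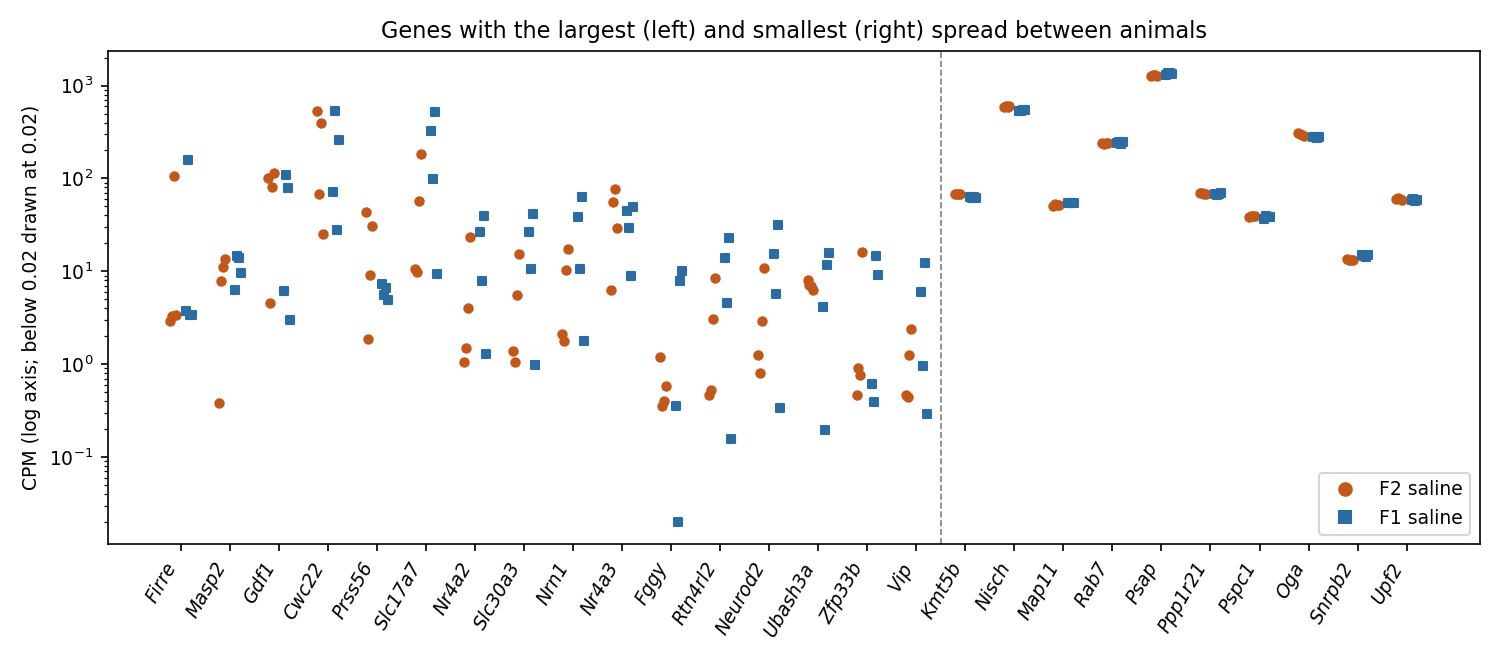
CPM (log axis) of the genes with the largest SD of log2 CPM in F2 or F1 saline (left of the dashed line) and of the 10 steadiest genes (right), for 4 F2 saline (circles) and 4 F1 saline (squares) libraries. Firre reaches 105.4 CPM in a single F2 library and 158 CPM in a single F1 library, while points of the steady genes lie on top of each other.

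Activity-regulated genes varied between animals in both generations. The 38 immediate early genes, transcribed within minutes of neuronal activity, summed to 1754, 3465, 3334 and 2244 CPM in F2 saline and to 2972, 2376, 1496 and 2971 CPM in F1 saline. Nr4a3, an orphan nuclear receptor gene of this class, was at 6.29, 55.4, 76.9 and 29.6 CPM in F2 saline and at 44.6, 29.05, 9.01 and 48.9 CPM in F1 saline. Arc, a synaptic plasticity gene chosen after its values were seen, was at 178, 477, 492 and 247 CPM in F2 saline and at 379, 249, 105 and 319 CPM in F1 saline. F2 replicates 2 and 3 were high and F2 replicate 1 and F1 replicate 3 low in all of these values. The ranges of the generations overlapped, 0 of 38 genes passed the test, and the median log2 fold change of 0.046 changed sign without F2 replicate 2 (-0.092), without F2 replicate 3 (-0.067) and without F1 replicate 3 (-0.16).

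Cell type lists differed in how widely they ranged. The 23 oligodendrocyte and myelin markers summed to 15316, 10187, 12644 and 8200 CPM in F2 saline and to 7811, 8418, 8596 and 9630 CPM in F1 saline, a highest-to-lowest ratio of 1.87 within F2 and 1.23 within F1. The 16 choroid plexus markers, of which 11 were tested, summed to 170 to 314 CPM in F2 saline and to 155 to 182 CPM in F1 saline. The defining marker Ttr gave only 5.87 to 8.77 CPM in F2 saline and 1.07 to 15.98 CPM in F1 saline. Most of the sum came from other members, so it is not a measure of choroid plexus content. The 28 general spiny projection neuron genes summed to 22781, 25697, 21842 and 20126 CPM in F2 saline and to 21115, 20349, 15264 and 23601 CPM in F1 saline, lowest in F1 replicate 3. Erythrocyte genes summed to 352 to 419 CPM in F2 saline and to 427, 496, 429 and 1146 CPM in F1 saline.

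**Figure D3:**
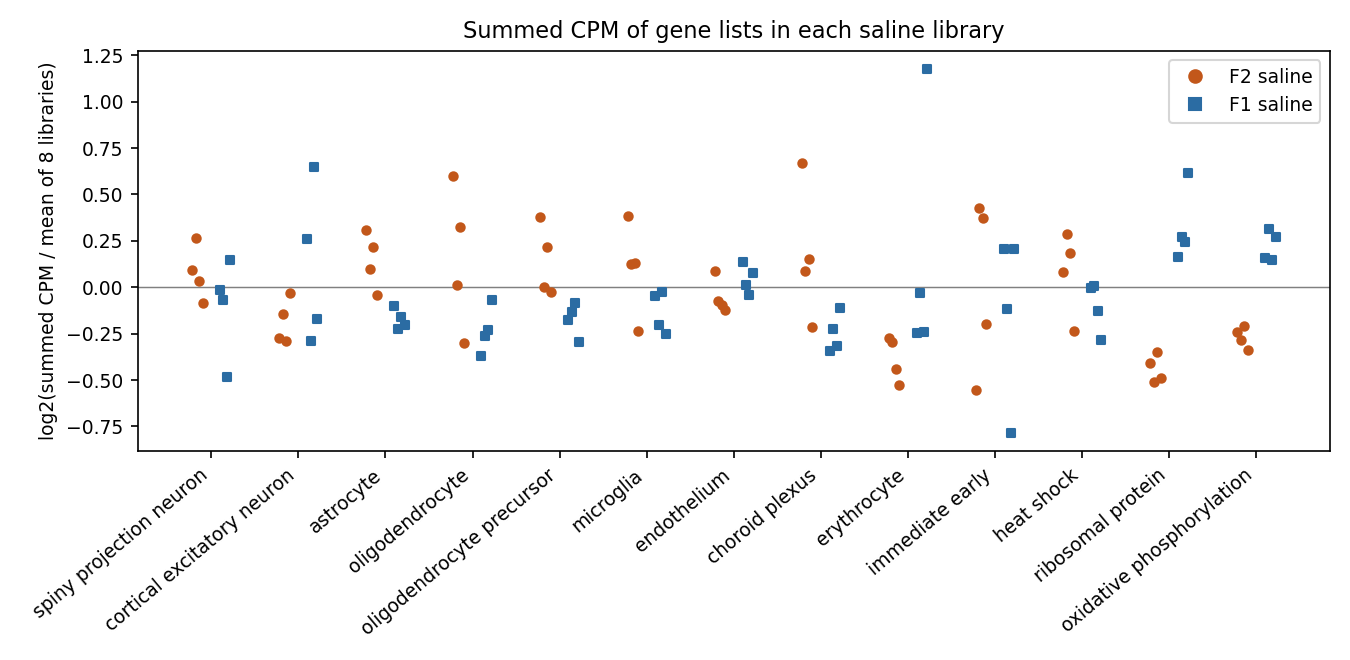
Summed CPM of 13 gene lists in each saline library, as log2 of the ratio to the mean of the 8 libraries. Circles are F2 saline (left of each pair) and squares F1 saline. Ribosomal protein, oxidative phosphorylation, astrocyte, oligodendrocyte precursor and erythrocyte genes separate the generations without overlap, while immediate early genes scatter widely within both.

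The comparison of F2 saline with F1 saline showed lower levels of genes for ribosomes and mitochondrial energy production, and higher levels of some astrocyte markers. Calls higher also fell on the oligodendrocyte precursor (2), glutamate receptor (5) and chromatin modifier (3) lists. With a trend on transcript length and GC content removed, these lists had 1, 1 and 0 calls. Calls in ribosomal protein genes then went from 70 to 44, in oxidative phosphorylation genes from 63 to 29 and in astrocyte markers from 5 to 3. edgeR's quasi-likelihood test (Benjamini-Hochberg adjusted p under 0.05) called 1290 of 18088 genes, 7.13% of those tested. Of these, 434 (2.40%) were higher and 856 (4.73%) lower in F2 saline. All 4 F2 values lay above all 4 F1 values for 1398 genes (7.73%) and below them for 1736 genes (9.60%). With the deposited TPM in place of counts (log2 of TPM + 1, limma-trend), the split was 1387 higher and 746 lower. That fit changed the scale and the test together. Leaving out F2 replicate 2 left 92 higher and 448 lower calls, leaving out F2 replicate 1 left 125 higher and 487 lower, and each of the other libraries except F2 replicate 4 (559 higher) also took the higher calls below 434 by over 1.5 times, to between 139 and 274.

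Ribosomal protein genes, whose products form the cytosolic ribosome, were lower throughout. Of 79 tested, 79 had a lower level in F2 saline and 70 passed the test, against a background of 4.73%. Their median log2 fold change was -0.82, beside 0.00 over all tested genes. Their median transcript length was 780 nucleotides. Of all tested genes of 500 to under 1000 nucleotides, 36.9% were called lower, and 30.8% without ribosomal protein and oxidative phosphorylation genes. They took 0.883%, 0.807%, 0.916% and 0.876% of all counts in F2 saline, against 1.34%, 1.46%, 1.46% and 1.85% in F1 saline. The groups did not overlap. The counts of called members ranged from 58 to 72 when each library was left out in turn, and 61 were called without the 3 libraries with Slc17a7 above 100 CPM. Ribosomal protein genes have many processed pseudogenes, so levels of single members are uncertain.

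Rpl41, encoding the shortest protein of the large subunit, was at 99.02, 103, 112 and 108 CPM in F2 saline and at 261, 263, 268 and 379.7 CPM in F1 saline (log2 fold change -1.47, SE 0.12, edgeR adjusted p = 0.000155). Rps21, a protein of the small subunit, was at 66.5, 56.3, 67.6 and 60.6 CPM in F2 saline and at 153, 173, 169 and 217 CPM in F1 saline (-1.50, SE 0.11, adjusted p = 0.000114). Rplp1, an acidic protein of the ribosomal stalk, averaged 158 ± 18.8 CPM in F2 saline and 424 ± 70.3 CPM in F1 saline (-1.43, SE 0.13). In all 3 genes every F2 library lay below every F1 library. Further members passed with log2 fold changes of -1.07 for Rps15a, -1.27 for Rpl38 and -1.33 for Rps16.

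Genes of the nuclear-encoded respiratory chain were lower too. Of 75 tested oxidative phosphorylation genes, 73 were lower and 63 passed, with a median log2 fold change of -0.62. Beside this, 4.73% of all genes and 36.9% of those of 500 to under 1000 nucleotides were called lower. The median transcript length of the list was 775.5 nucleotides. They took 0.662% ± 0.0186 of counts in F2 saline and 0.955% ± 0.0570 in F1 saline (SD, n = 4 each), without overlap. Between 55 and 61 members were called when each library was left out in turn, and 53 without the 3 libraries with Slc17a7 above 100 CPM. Uqcrh, the hinge protein of complex III, was at 65.8, 60.01, 58.4 and 62.8 CPM in F2 saline and at 120, 131, 121 and 133 CPM in F1 saline (-1.03, SE 0.066, edgeR adjusted p = 0.000114). Cox7c and Cox7a2, small subunits of cytochrome oxidase, changed by -1.03 (SE 0.067) and -1.10 (SE 0.075) on the log2 scale. The ATP synthase subunit genes Atp5l, Atp5md and Atp5e had -1.11 (SE 0.076), -1.27 (SE 0.080) and -1.59 (SE 0.14).

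**Figure D4:**
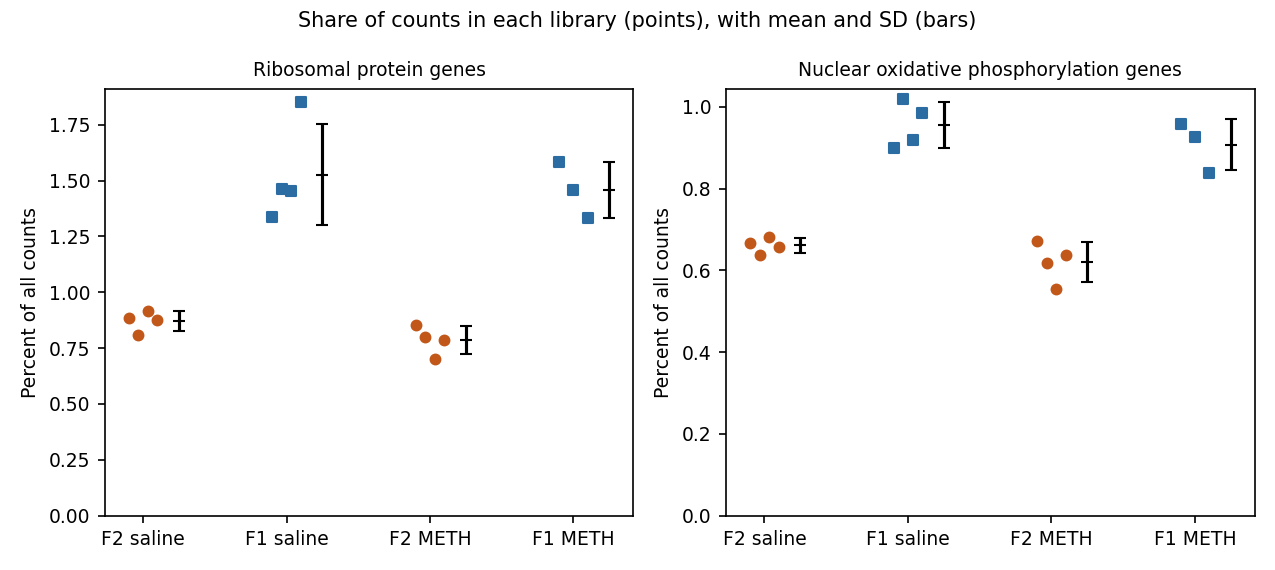
Percent of all counts taken by ribosomal protein genes (left panel) and nuclear oxidative phosphorylation genes (right panel) in each library of F2 saline, F1 saline, F2 METH and F1 METH (points), with mean and SD (bars). Every F2 library lies below every F1 library, in the saline and in the METH lineage.

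Mitochondrially encoded genes had a median near 0, with a single call lower, beside 4.73% of all genes called lower. Of 13 tested, 4 were higher and 9 lower, with a median log2 fold change of -0.033, which became 0.063 on the TPM scale, 0.0016 without F1 replicate 1 and 0.0030 without F2 replicate 2. In METH mice the median was -0.25, with 3 called lower and 0 higher. COX3 passed in saline mice, at 4681, 3849, 4198 and 3797 CPM in F2 saline and at 5633, 5449, 4927 and 6136 CPM in F1 saline (-0.42, SE 0.099, edgeR adjusted p = 0.0322).

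Other genes with the largest falls had varied roles. Gng13, a G protein gamma subunit, was at 4.93, 4.83, 4.71 and 5.98 CPM in F2 saline and at 14.0, 12.3, 19.1 and 17.8 CPM in F1 saline (-1.63, SE 0.16, edgeR adjusted p = 0.000422). Cops9, a small protein of the COP9 signalosome, which regulates ubiquitin ligases, was at 11.6, 9.93, 13.003 and 11.5 CPM in F2 saline and at 30.4, 32.3, 34.5 and 42.5 CPM in F1 saline (-1.60, SE 0.12, adjusted p = 0.000121). The F2 values of both genes lay well below the F1 values.

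Bc1, a short noncoding RNA gene of neuronal dendrites, was at 28.4, 21.5, 9.75 and 31.5 CPM in F2 saline and at 69.7, 53.8, 64.1 and 95.4 CPM in F1 saline (-1.64, SE 0.31). Myl4, an atrial and embryonic myosin light chain gene, averaged 0.700 ± 0.244 CPM in F2 saline and 3.20 ± 2.66 CPM in F1 saline (-2.18, SE 0.53, edgeR adjusted p = 0.0367), with F1 replicate 3 highest at 7.10 CPM. Ifi27l2a, an interferon-induced gene, and Acot5, a peroxisomal thioesterase gene, were both under 1.3 CPM in every library, with log2 fold changes of -2.45 (SE 0.59) and -1.39 (SE 0.31).

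The genes with the largest and most certain falls were very short, and the coding sequences of 4 of them show how short. They are given 5′ to 3′ from GENCODE M21 transcripts (GRCm38, the same assembly as mm10), with start and stop codons in capitals. Rpl41 (chr10:128548387-128548960, minus strand) codes for 25 amino acids, Atp5e (chr2:174462503-174463996, minus strand) for 52, Cops9 (chr1:92637366-92641942, minus strand) for 57 and Rps21 (chr2:180257634-180258387, plus strand) for 83. The coordinates span the coding region with its introns.
Rpl41: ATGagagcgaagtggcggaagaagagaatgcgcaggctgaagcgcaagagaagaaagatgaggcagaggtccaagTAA
Atp5e: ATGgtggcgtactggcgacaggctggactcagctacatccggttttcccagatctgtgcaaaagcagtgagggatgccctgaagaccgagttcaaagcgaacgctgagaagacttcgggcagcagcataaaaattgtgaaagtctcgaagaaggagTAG
Cops9: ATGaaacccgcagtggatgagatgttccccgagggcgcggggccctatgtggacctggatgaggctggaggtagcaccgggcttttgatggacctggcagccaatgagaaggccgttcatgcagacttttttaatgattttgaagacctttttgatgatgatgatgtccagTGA
Rps21: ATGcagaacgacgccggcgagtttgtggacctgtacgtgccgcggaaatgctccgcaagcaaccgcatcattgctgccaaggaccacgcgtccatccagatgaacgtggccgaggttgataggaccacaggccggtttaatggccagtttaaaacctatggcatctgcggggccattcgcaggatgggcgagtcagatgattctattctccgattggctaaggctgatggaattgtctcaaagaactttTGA

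Across the genes named for fold or p, coding length did not overlap between directions. The 14 coding genes named on the lower side had coding regions of 78 to 996 bases, with a median of 252. The 15 on the higher side had coding regions of 1266 to 9876 bases, with a median of 2304.

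On the higher side, the fold changes were smaller. Dchs1, a giant protocadherin of tissue polarity, was at 37.6, 41.9, 40.4 and 40.6 CPM in F2 saline and at 27.6, 25.3, 23.6 and 26.4 CPM in F1 saline (0.64, SE 0.073, edgeR adjusted p = 0.000859). Ptprz1, a receptor tyrosine phosphatase of astrocytes and oligodendrocyte precursors, was at 305, 263, 278 and 262 CPM in F2 saline and at 197, 190.1, 193 and 175 CPM in F1 saline (0.55, SE 0.072, adjusted p = 0.00195). Slc7a11, the cystine-glutamate exchanger, averaged 28.8 ± 2.65 CPM in F2 saline and 15.98 ± 2.55 CPM in F1 saline (0.85, SE 0.12, adjusted p = 0.0031).

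Itgb8, an integrin subunit that takes part in activating latent TGF-beta, averaged 23.7 ± 3.63 CPM in F2 saline and 12.2 ± 2.29 CPM in F1 saline (0.95, SE 0.15, edgeR adjusted p = 0.00509). Prex2, a Rac exchange factor gene, Soga1 and Sytl5, a synaptotagmin-like gene, had log2 fold changes of 0.64, 0.58 and 0.72, each with an SE under 0.1. Scel, Utp14b, Xkr6, Map3k19 and A2m, the protease inhibitor alpha-2-macroglobulin, had log2 fold changes of 0.99, 0.88, 0.85, 0.80 and 1.09, and all F2 libraries lay above all F1 libraries.

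Padi2, a peptidylarginine deiminase gene of oligodendrocytes, was at 80.8, 56.1, 52.3 and 42.05 CPM in F2 saline and at 28.4, 32.6, 35.5 and 34.7 CPM in F1 saline (0.82, SE 0.17, edgeR adjusted p = 0.0213). Ugt8a, the enzyme that makes the myelin lipid galactosylceramide, was at 163, 98.5, 117 and 69.4 CPM in F2 saline and at 60.6, 68.7, 64.1 and 65.2 CPM in F1 saline (0.79, SE 0.21, adjusted p = 0.0477). Both were highest in F2 replicate 1, the library with the highest myelin sum. Foxj1, the master transcription factor of motile cilia in ependymal cells, averaged 10.4 ± 2.79 CPM in F2 saline and 5.06 ± 1.82 CPM in F1 saline (1.04, SE 0.27, adjusted p = 0.0461).

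Astrocyte markers had a positive median, and some passed. Of 20 tested astrocyte markers, 20 had a higher level in F2 saline and 5 passed, against a background of 2.40%, with a median log2 fold change of 0.30. Those 5 were Aqp4, the water channel (0.65, SE 0.13), Gli3, a hedgehog pathway transcription factor (0.61, SE 0.10), Gja1, a gap junction connexin (0.43, SE 0.11), Atp1b2, a sodium pump subunit (0.41, SE 0.088), and Slc1a3, a glutamate transporter (0.32, SE 0.080). Aqp4 was at 117, 83.5, 89.99 and 86.4 CPM in F2 saline and at 59.02, 58.9, 71.3 and 50.01 CPM in F1 saline. When each library was left out in turn, 2 to 7 members passed, and 3 passed without the 3 libraries with Slc17a7 above 100 CPM. The sum of the list ran from 6169 to 7857 CPM in F2 saline and from 5424 to 5899 CPM in F1 saline.

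Oligodendrocyte lineage lists had medians of the same sign with few calls, beside 2.40% of all genes called higher and 4.73% lower. Of 23 oligodendrocyte and myelin markers, 20 were higher, with a median of 0.41, and Ugt8a passed. That call depended on single libraries: 12 members passed higher without F2 replicate 4 and 0 without any 1 of the other 7 libraries, and the median was 0.27 without F2 replicate 1. Of 15 oligodendrocyte precursor markers, 15 were higher, with a median of 0.28, and 2 passed, namely Gpr17, a receptor of differentiating precursors (0.54, SE 0.12), and Itpr2, an inositol trisphosphate receptor (0.43, SE 0.095). None passed without F1 replicate 2, F2 replicate 1 or F2 replicate 3, 1 passed without F1 replicate 4 or F2 replicate 2, and 5 passed without F2 replicate 4. Of 22 microglia markers, 16 were higher, with a median of 0.18, while the member that passed, the signalling adaptor Tyrobp, was lower (-0.64, SE 0.15). Without F2 replicate 4, 5 microglia markers passed higher and 1 lower. Of 20 endothelial markers, 12 were lower, with a median of -0.099, and 3 passed lower, namely Itm2a (-0.39, SE 0.071), Egfl7 (-0.78, SE 0.15) and Ly6c1 (-0.53, SE 0.12), against 4.73% of all genes. Leaving out 1 library gave 1 (F2 replicate 2) to 4 endothelial calls.

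Spiny projection neuron lists held no call. Of 28 general, 8 indirect pathway and 9 direct pathway genes, 25, 7 and 7 were higher, with medians of 0.15, 0.15 and 0.13 and 0 passing in each. Without F1 replicate 3 the direct pathway median was -0.012. Of 40 glutamate receptor and postsynaptic scaffold genes, 30 were higher, with a median of 0.13, and 5 passed, all higher, against 2.40% of all genes. Leaving out 1 library gave 1 to 5 calls, with 1 without F1 replicate 3, F1 replicate 4, F2 replicate 1 or F2 replicate 2, and there were 0 without F2 replicates 2 and 3 together. These included Grm3, a metabotropic receptor (0.52, SE 0.094), Grin2b, an NMDA receptor subunit (0.34, SE 0.083), and Dlg2, a scaffold (0.36, SE 0.087). Grin2b was at 406, 478, 388 and 425 CPM in F2 saline and at 333, 305, 358 and 341 CPM in F1 saline.

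Synaptic vesicle genes had calls in both directions. These calls and those of the next 2 lists stand beside 2.40% of all genes called higher and 4.73% lower. Rab3c (0.48, SE 0.095) and Sv2c (0.56, SE 0.13), a vesicle protein enriched in basal ganglia, passed higher, and Rab3a (-0.30, SE 0.077) passed lower, out of 30 tested with a median of -0.067 that became 0.049 on the TPM scale and 0.0030 without F1 replicate 3. Among 31 potassium channel genes only Kcnq3, a subunit of the M current, passed (0.27, SE 0.068), and its sign turned with the removal of a length trend described below (-0.017). Among 23 cholesterol genes only Srebf2, the transcription factor of the pathway, passed (0.32, SE 0.073).

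Chromatin and RNA lists held few calls. Of 30 DNA methylation and histone modifier genes, 22 were higher, with a median of 0.16, and 3 passed, among them Tet1, which oxidises methylated cytosine (0.48, SE 0.081), and Kdm5c, an X-linked histone demethylase (0.38, SE 0.083), against 2.40% of all genes. Leaving out 1 library gave 1 or 2 calls higher. Malat1, an abundant nuclear long noncoding RNA, was at 1765, 1906, 1315 and 1517 CPM in F2 saline and at 1243, 937, 858 and 876 CPM in F1 saline (0.73, SE 0.15, edgeR adjusted p = 0.0172). The noncoding genes Pantr1 (-0.91, SE 0.12) and Epb41l4aos (-1.11, SE 0.19) passed lower. Son, a splicing scaffold (0.27, SE 0.063), passed higher and Rbm3, a cold-inducible RNA-binding protein (-0.60, SE 0.11), lower. Of 42 imprinted genes, Ube3a (0.38, SE 0.082) and Usp29 (0.39, SE 0.090) passed higher, and Slc38a4 (-1.19, SE 0.24), Mcts2 (-0.92, SE 0.23) and a further member lower. These 2 higher and 3 lower calls of 42 stand beside 2.40% higher and 4.73% lower over all genes.

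Clock and stress lists held 1 or 2 calls each, beside 2.40% of all genes called higher and 4.73% lower. Clock, the core activator of the circadian cycle (0.42, SE 0.070), and Rora, a nuclear receptor that drives Bmal1 transcription (0.26, SE 0.066), passed higher among 22 circadian genes with a median of 0.077. Nr3c1, the glucocorticoid receptor (0.32, SE 0.071), passed among 23 glucocorticoid responsive genes with a median of -0.14. Hspe1, a mitochondrial chaperonin (-0.49, SE 0.12), passed lower among 44 heat shock genes, of which 38 were higher. Without F2 replicate 4, 12 heat shock genes passed higher and 0 lower. In all, 21 of 40 lists held at least 1 call and 19 held 0, among them interferon genes, antigen presentation genes, striatal interneuron markers and dopamine receptor genes.

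Gene families chosen after their values were seen are given as descriptions, beside 4.73% of all genes called lower, 36.9% of genes of 500 to under 1000 nucleotides and 9.27% of genes of 1000 to under 2000 nucleotides. Of 78 mitochondrial ribosomal protein genes, 39 (50.0%) were called lower (median length 1253 nucleotides), and of 17 subunits of the 20S proteasome core, 13 (76.5%). Calls lower numbered 7 of 13 for RNA polymerase II subunits, 9 of 24 for mitochondrial import genes and 9 of 26 for Sm and LSM proteins of the spliceosome, with median lengths of 1015, 1515 and 1161 nucleotides, and 0 in these 5 families were called higher. Of 21 subunits of the proteasome's regulatory particle, whose median transcript length was 1636 nucleotides against 1183 for the core, 2 were called lower. Of 39 cadherin and protocadherin genes, 4 were called higher and 0 lower, with a median length of 5161 nucleotides.

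Calls and fold changes followed transcript length over the tested genes as a whole. The 13 mitochondrially encoded genes, of median length 784 nucleotides, stood apart. Their median log2 fold change was -0.033, beside -0.43 for all tested genes of 500 to under 1000 nucleotides. Length was known for 14847 tested genes (82.1%) as the median of the gene's annotated transcripts. The median length was 6141 nucleotides for genes called higher, 1032 for genes called lower and 2920 over all tested genes with a length. In the class under 500 nucleotides, 41.8% of genes were called lower and 0 higher. From 500 to under 1000 nucleotides, 36.9% were called lower and 0.115% higher. In the class of 8000 nucleotides or more, 0.157% were called lower and 18.4% higher. The median log2 fold change climbed through the 6 length classes in steps from -0.60 to 0.25. Without ribosomal protein and oxidative phosphorylation genes, 26.4% of genes under 500 nucleotides and 30.8% of those from 500 to under 1000 were still called lower.

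The same pattern stood in the libraries as a whole. The median transcript length, weighted by counts over genes with a known length, was 3414 to 3476 nucleotides in F2 saline libraries, against 3179 to 3281 nucleotides in F1 saline libraries. The rank correlation of fold change with length across genes was 0.51, a description of genes that are not independent. How the RNA and libraries of the generations were handled is given in the labels for all samples together, and the part of length in the calls was not tested apart from generation and table.

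**Figure D5:**
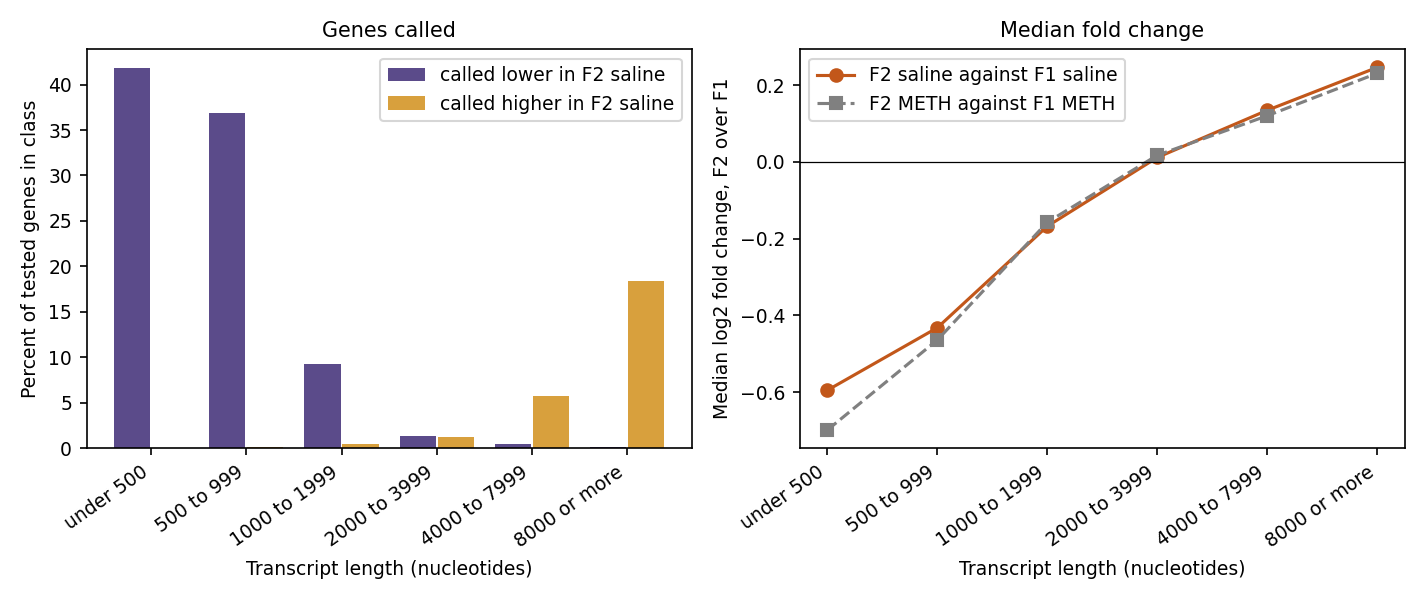
Left: percent of tested genes called lower or higher in F2 saline, by transcript length class (nucleotides). Right: median log2 fold change of F2 over F1 per class, for saline (circles) and METH (squares) mice. Calls lower fall from 41.8% in the shortest class to 0.157% in the longest, and both lines rise from left to right.

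With a smooth trend on transcript length and GC content removed from each library, an alternative chosen after the data were seen, 279 of 14847 genes passed, 69 higher and 210 lower. Of the 1290 calls, 1181 had a length and could be tested, and 240 of them passed. Ribosomal protein genes had 44 calls lower and a median of -0.48, and oxidative phosphorylation genes 29 calls lower and a median of -0.26. Astrocyte markers had 3 calls higher with a median of 0.30, close to the value before. The oligodendrocyte precursor and glutamate receptor lists had 1 call higher each, with medians of 0.24 and 0.040. The lists of DNA methylation and histone modifiers (median 0.070), synaptic vesicle genes, oligodendrocyte markers, endothelial markers and circadian genes had 0 calls. Mitochondrially encoded genes turned to 12 of 13 higher, with 2 calls higher and a median of 0.25. The 2 calls were ATP8 (0.64, SE 0.10) and ND4L (0.62, SE 0.12), of 204 and 297 nucleotides. Their levels are uncertain because each overlaps another gene. The smallest adjusted p was that of Nme1, a nucleoside diphosphate kinase gene (-0.90, SE 0.059, edgeR adjusted p = 0.00037), named after its values were seen, at 45.9 CPM in F2 saline and 83.2 CPM in F1 saline on average.

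The METH lineage, which shares no sample with the saline lineage but the same tables, gave the same contrast. F2 METH against F1 METH had calls for 6.75% of genes, with 388 higher (2.11%) and 853 lower (4.64%) of 18385 tested. Of the 854 saline-lower genes tested there, 849 had the same sign and 548 passed. Of 434 saline-higher genes, 405 had the same sign and 104 passed. None of the saline calls passed in the opposite direction. The rank correlation of fold change with length across genes was 0.49. Ribosomal protein genes took 0.786% ± 0.0628 of counts in F2 METH and 1.46% ± 0.125 in F1 METH (SD, n = 4 and n = 3), with a median log2 fold change of -1.004 and 72 of 79 called lower. Oxidative phosphorylation genes had a median of -0.70 and 57 calls lower.

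The astrocyte and oligodendrocyte lists had medians near 0 in the METH contrast. The median of the astrocyte list was -0.075 there, beside 0.30 in saline mice, and that of the oligodendrocyte list -0.013, beside 0.41. The precursor list had a median of 0.11, beside 0.28, with 1 call higher. The microglia list had a median of -0.10, beside 0.18, with 4 calls lower and 0 higher. Of the named higher genes, Prex2 had a log2 fold change of -0.0013 and Scel of -0.28 in METH mice. The difference of the generation contrast between lineages was tested gene by gene over all 15 libraries, and 1 of 19308 genes (0.00518%) passed, the aldehyde oxidase gene Aox4. No member of the 40 lists passed that test, so none of these differences is shown for any listed gene.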

How the data were processed

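RNA sequencing of striatum gave 1 table per generation with counts, FPKM and TPM per feature for each library. Per the submitters' processing notes, the authors used bcl2fastq 2.20.0, Trimmomatic, HISAT2 2.1.0 and StringTie 2.1.3b with mm10; their order, settings and strand handling are, in the sources used here, not given. The counts deposited were whole numbers per feature. The deposited FPKM (only summed here) and TPM values had been scaled by the authors for length and library size, each library on its own, so TPM levels are set across the tables. Groups came from the labels. Counts were tested with edgeR 4.0.16 (R 4.3.3; filterByExpr with a minimum count of 10, TMM, quasi-likelihood F test, Benjamini-Hochberg adjusted p under 0.05), fitted separately for the saline and METH lineages; the difference of contrasts used all 15 libraries. CPM are TMM-scaled, and log2 fold changes are those of the edgeR fit, F2 over F1, at its default prior count. Log2 CPM, from which the SDs were taken, had a prior count of 2. Alternatives used DESeq2 1.42.0, limma 3.58.1 and log2 of the deposited TPM plus 1. Transcript lengths and coding sequences came from GENCODE M21. Scripts were tested on simulated data, and figures drawn with matplotlib 3.10.9. Named genes were the 25 highest in TPM, per direction the 10 largest fold changes and 5 smallest p among called, non-overlapping, annotated genes at 1 TPM or more, the 10 most variable per generation, the 10 steadiest, up to 4 called members per list, and defining markers, of which some are not reported here. Members and lists were chosen with earlier results of these data known. For the median gene, counting error was small at these depths, and precision rests on the number of animals. At 1 to 5 TPM, counting error alone would give a median SD of 0.16 in F2 saline and 0.15 in F1 saline, beside 0.32 and 0.33 found.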

Additional observations from a re-analysis of the deposited data

Results flagged for a closer look

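Of 160 groups of 4 values examined, 11 held a library far from the other 3 of its group, where chance alone flags about 1 in 20. The libraries and values were as follows. In F2 saline replicate 2, glutamate receptor and scaffold genes summed to 15861 CPM, against 14224 to 14302 CPM in the other F2 libraries, and Drd1 was at 222.3 TPM, against 168 to 174 TPM. In F2 saline replicate 3, Cldn5 was at 31.7 TPM, against 47.4 to 49.1 TPM, and Flt1 at 22.9 TPM, against 29.2 to 30.03 TPM. In F2 saline replicate 4, Hbb-bs was at 79.9 TPM, against 100.9 to 105 TPM. In F1 saline replicate 3, small structured RNA genes summed to 305 CPM, against 85.9 to 99.5 CPM in the other F1 libraries. In F1 saline replicate 4, erythrocyte genes summed to 1146 CPM, against 427 to 496 CPM. In the same library Hba-a1 was at 1452 TPM, against 191 to 330.04 TPM, Hbb-bs at 814 TPM, against 133 to 202 TPM, and Hbb-bt at 330.5 TPM, against 45.02 to 78.5 TPM, while Pdgfra was at 18.1 TPM, against 23.3 to 23.6 TPM.

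The contrast of F2 with F1 differed between lineages for Aox4, with a saline minus METH log2 difference of -7.61 (edgeR adjusted p = 0.0317). Its reads numbered 10, 10, 29 and 21 in F2 saline, 24, 18, 29 and 23 in F1 saline, 19, 16, 18 and 14 in F2 METH and 0, 0 and 0 in F1 METH. The size of the fitted difference depends on the prior count of the fit.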

How the results depend on the processing

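Against 434 higher and 856 lower calls of F2 saline over F1 saline, the DESeq2 Wald test gave 1148 and 1308, an adjusted p under 0.1 gave 1082 and 1368, and one under 0.01 gave 32 and 351. Higher calls numbered 259 with no filter, 1387 and 1365 on log2 of TPM + 1 and TPM + 0.1, which moved the median of all genes to 0.075 and 0.095, and 820 in a fit of all 15 libraries. Leaving out 1 library gave 92 to 559 higher and 448 to 779 lower calls, and 63 of the 434 and 426 of the 856 calls were kept in all 8 such fits. Without the 3 libraries with Slc17a7 above 100 CPM there were 90 higher and 408 lower calls, and without F2 saline replicates 2 and 3 together 16 and 252. The replicate block gave 201 and 493 calls (METH 93 and 521). Same-numbered saline libraries correlated at -0.029, 0.018, -0.012 and -0.18. Both saline groups carry the same animal numbers, and no label says whether these pair relatives. Correlations of expression cannot decide that, so pairing is unknown. With the length and GC trend removed there were 69 and 210 calls (METH 110 and 317), and Kcnq3 turned to -0.017. Against 388 and 853 METH calls, DESeq2 gave 942 and 1281, no filter 225 higher, the TPM scales 2532 and 2562 higher, and leaving out 1 library 117 to 546 higher and 448 to 1046 lower. The cause of these changes was not tested. Genes at 1 to 5 TPM had a wider spread than those at 100 TPM or more, so small changes there are not detectable with 4 animals.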
